A study of Homo sapiens with 12 samples.

Results

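The genes described here are the listed protein-coding genes whose symbols begin with CNOT, EXOSC, CPSF, CSTF, DCP, PAPOL, PABP, ZC3H, ZFP36, THOC, NXF, NXT, YTHD, SMG, UPF or XRN, most of which act in mRNA 3' end processing, export and decay. They number 44 of the 5759 genes per the authors' deposited table, and were chosen by symbol alone. RefSeq holds 103 coding genes with these prefixes, so 59 are not analysed here, among them 4 of 4 UPF genes and 2 of 2 XRN genes. RNA was sequenced from MOLT4, an established human T lymphoblast line from an acute lymphoblastic leukaemia, in 12 samples of 4 groups of 3. The cells, labelled WT, received DMSO (6 h), the compound 955 (0.1 µM, either 1 h or 6 h) or SNS-032 (1 µM, 6 h). SNS-032 is an inhibitor of cyclin-dependent kinases such as CDK9, which acts in transcription, and 955 joins it as a warhead to piperlongumine, a plant electrophile, for targeted protein degradation. The doses of the compounds differ, and the vehicle was collected at 6 h only, so treatment and time in culture cannot be told apart in the comparison at 1 h.

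An mRNA made by RNA polymerase II is cut at its 3' end by the CPSF and CSTF complexes, given a poly(A) tail by a poly(A) polymerase, and coated by poly(A)-binding proteins. The THO complex and the NXF1 and NXT1 receptor carry it to the cytoplasm. Decay usually starts when the CCR4-NOT complex shortens the tail. The body is then degraded from the 3' end by the exosome or, after removal of the cap, from the 5' end. ZFP36 proteins, YTH proteins and the nonsense-mediated decay factors select which mRNAs enter this path.

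Values were taken from the authors' deposited table, which gives for each gene a log2 fold change against DMSO, an F statistic and a false discovery rate (FDR) for each treated group. Values of single samples were not used here and the depth behind each value is unknown. The implied standard error (SE) given below was obtained by dividing the size of the log2 fold change by the square root of F. A gene rose or fell when it had an FDR under 0.05 together with a log2 fold change of 1 or more in size. The labels do not say whether replicates were separate cultures, so the FDR rests on a spread between these samples that may be technical. Each listed gene had passed in some comparison, so shares below are over genes listed for having changed: 42.7% of the coding genes with these prefixes were listed, against 26.3% of all RefSeq coding genes. The average level of the 44 genes over all samples was 2.70 to 12.6 log2 CPM per the authors' deposited table, with a median of 4.89 against 4.15 for all listed genes. Of 20 T lymphoblast markers, 9 were listed, at 3.74 to 8.06 log2 CPM per the authors' deposited table. Of 5 myeloid markers none was among the genes analysed here. The 13 mitochondrially encoded mRNAs had median log2 fold changes of 0.67 after 1 h of 955, 2.07 after 6 h of 955 and 2.35 under SNS-032 per the authors' deposited table. Setting these medians to 0 lowers every gene by that amount, and the authors' own scaling is used below except where another is named. In bulk RNA, fewer cells with a transcript and less of it per cell cannot be told apart.

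Most of these genes fell at 6 h. After 6 h of 955, 30 of the 44 fell and 5 rose per the authors' deposited table, where 85.3% of all listed genes passed in either direction (50.1% lower and 35.2% higher). With SNS-032, 33 fell and 5 rose per the authors' deposited table, against 90.2% of all listed genes in either direction (52.5% lower and 37.8% higher). After 1 h of 955, 8 of the 44 fell and none rose, while 8.44% of all listed genes passed (7.71% lower and 0.729% higher). At 1 h, 3 genes were above DMSO with an FDR under 0.05 but were under the bound of 1. They were CPSF1, PABPC1 and PABPC1L, at 0.49, 0.35 and 0.88 per the authors' deposited table (FDR 0.00357, 0.0178 and 6.68e-05). By unadjusted p under 0.05 the number above DMSO was also 3. Fallen genes thus made up 68.2%, 75.0% and 18.2% of the 44 in these comparisons. The 44 are all protein-coding, and of all listed coding genes 53.0%, 54.7% and 8.27% fell. In the same order, the median log2 fold change of listed coding genes was -1.08, -1.11 and -0.08. The median log2 fold change of the 44 per the authors' deposited table was -0.15 at 1 h, -1.38 with 955 at 6 h and -1.37 under SNS-032, beside -0.05, -1.03 and -1.07 over all listed genes. These comparisons share their DMSO samples. Under mitochondrial scaling none of the 44 rose in these 3 comparisons and 20, 39 and 41 fell. With the same scaling 27.7%, 65.8% and 71.1% of all listed genes fell.

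**Figure D1:**
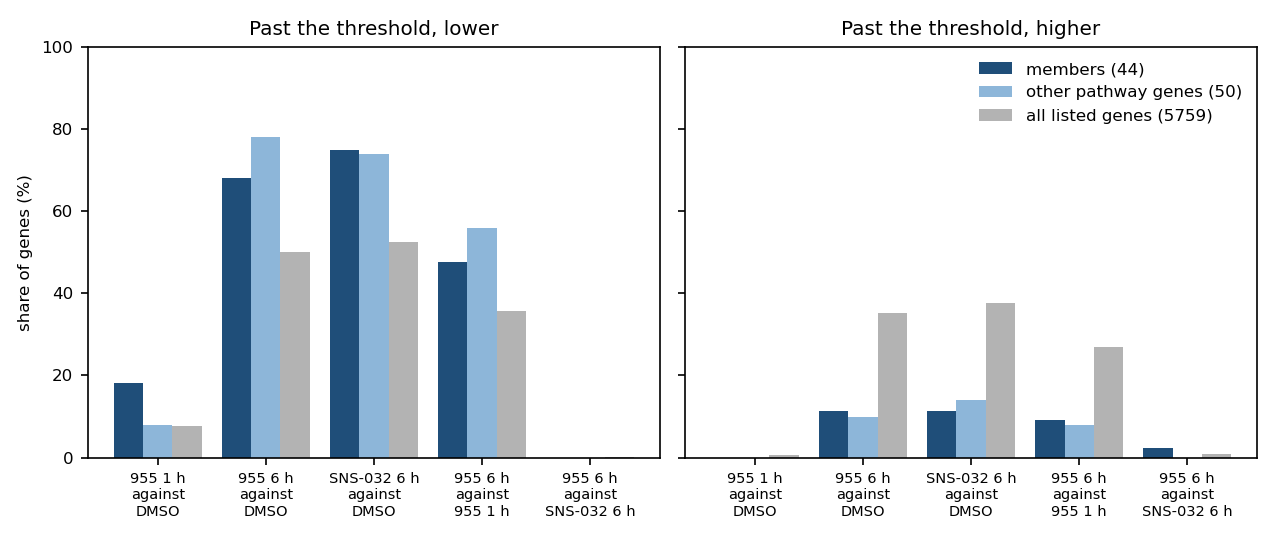
Share of genes (%) past the threshold, lower (left) and higher (right), in 5 comparisons, for the 44 genes, for 50 other listed genes of the same pathways and for all 5759 listed genes. At 6 h the fallen share of the 44 is 68.2% with 955 and 75.0% under SNS-032, and that of all listed genes is 50.1% and 52.5%.

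**Figure D2:**
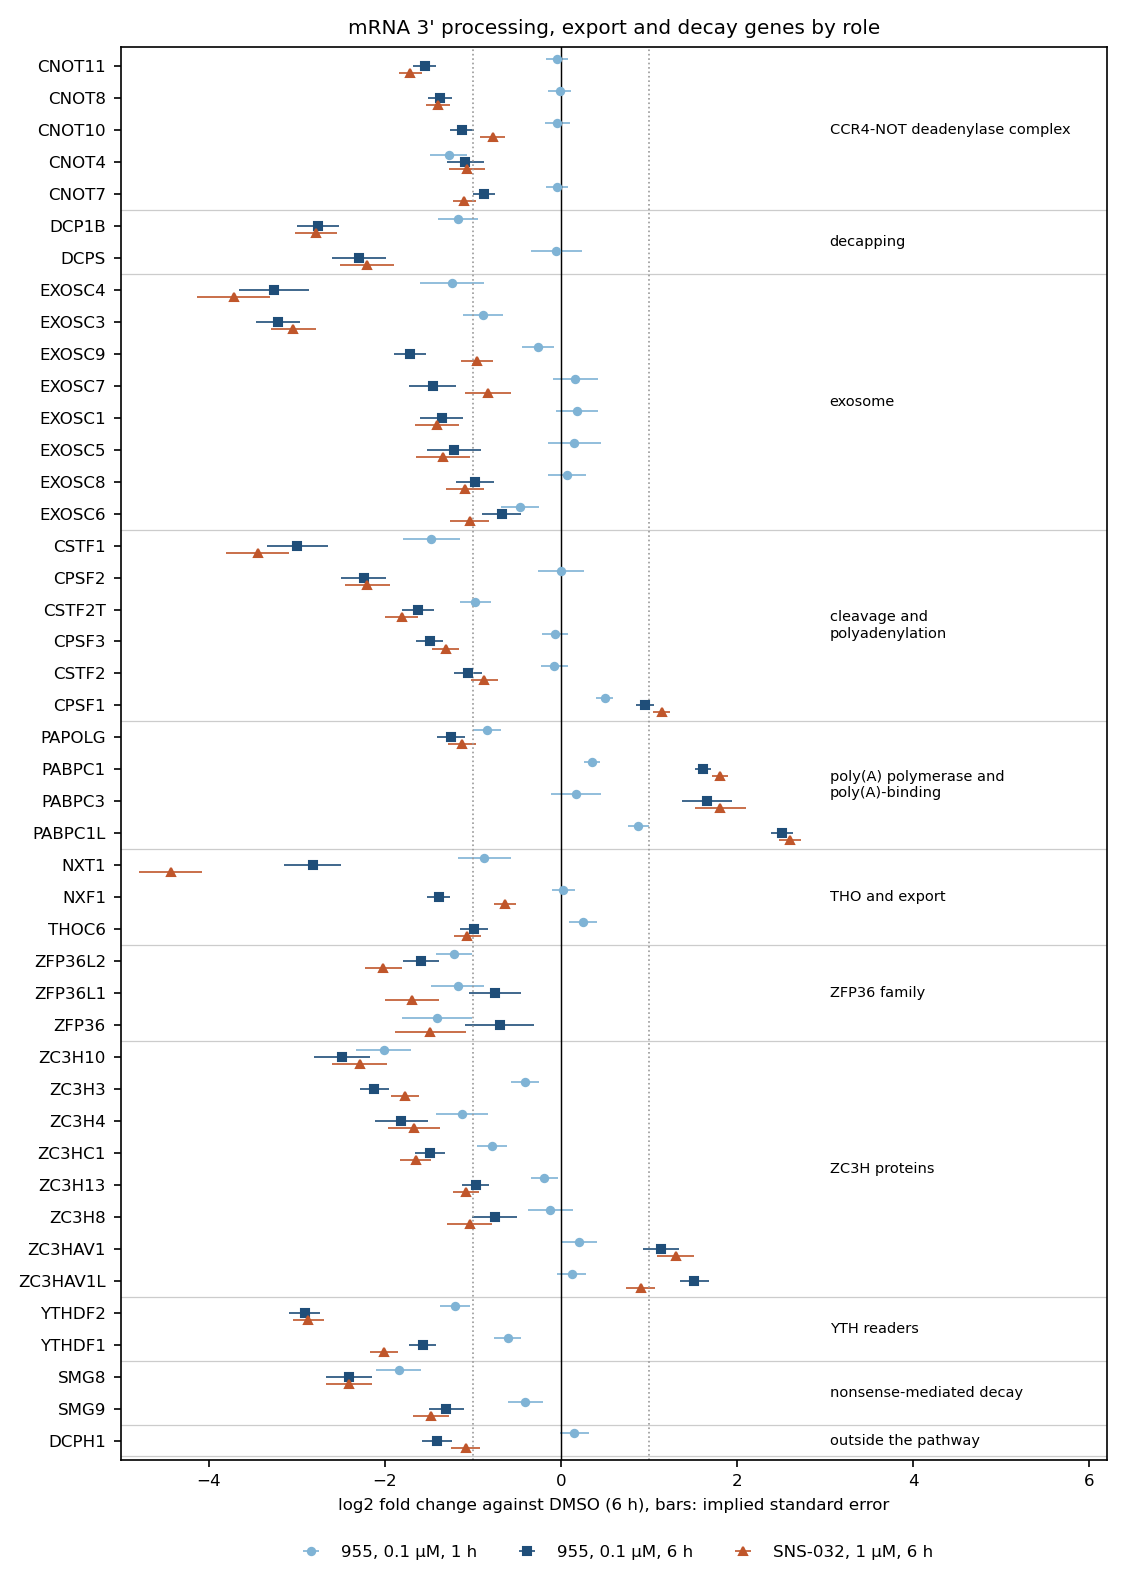
Log2 fold change against DMSO (x axis) of each of the 44 genes (rows, grouped by role) after 1 h of 955, 6 h of 955 and 6 h of SNS-032, where bars are implied standard errors and dotted lines mark -1 and 1. Most values at 6 h lie left of -1, and PABPC1L, PABPC1 and PABPC3 lie right of 1 with both compounds.

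Of 6 cleavage and polyadenylation genes, 5 fell after 6 h of 955 and 4 under SNS-032. CSTF1, a subunit of the cleavage stimulation factor, was lowest, at -1.47 after 1 h of 955, -2.99 after 6 h and -3.44 under SNS-032 per the authors' deposited table (SE 0.33, 0.35 and 0.36; FDR 0.0271, 3.21e-05 and 1.11e-05). It had 10.9 denominator degrees of freedom, against a median of 23.3 over all listed genes, so its spread between replicates was estimated with less support. CPSF2 was at 0.00 after 1 h, -2.24 after 6 h of 955 and -2.20 under SNS-032 per the authors' deposited table. Its partner CPSF3, the endonuclease that cuts the pre-mRNA, was at -0.06, -1.49 and -1.31. CSTF2, which binds the sequence downstream of the cut, was at -0.07, -1.05 and -0.87 per the authors' deposited table, and its intronless paralog CSTF2T at -0.97, -1.62 and -1.81. The last value of CSTF2 and the first of CSTF2T were under the bound of 1 although their FDR was 8.43e-05 and 0.00161 per the authors' deposited table. Reads shared by CSTF2 and CSTF2T make the split between them uncertain. CPSF1, the scaffold subunit, went the other way: it was at 0.49 after 1 h, 0.96 after 6 h of 955 and 1.14 under SNS-032 per the authors' deposited table, and rose under SNS-032 alone. Mitochondrial scaling put CPSF1 at -1.11 and -1.20 at 6 h, below DMSO.

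The 3 poly(A)-binding protein genes rose at 6 h with each compound, while the poly(A) polymerase gene fell. PABPC1, the main cytoplasmic poly(A)-binding protein, was at 0.35 after 1 h of 955 (FDR 0.0178), 1.61 after 6 h (1.71e-12) and 1.81 under SNS-032 (2.2e-13) per the authors' deposited table, with an SE of 0.09 in each. PABPC1L, a related protein known from the oocyte, was the highest of the 44 genes in each comparison, at 0.88, 2.51 and 2.61 per the authors' deposited table (SE 0.12, 0.12 and 0.13), a fold of 5.72 with 955 and 6.08 under SNS-032 at 6 h. The intronless PABPC3 was at 0.17, 1.66 and 1.81 per the authors' deposited table. Its sequence is close to that of PABPC1, so the authors' counting could have split reads between them. Under mitochondrial scaling PABPC1L stayed above DMSO, at 0.44 with 955 and 0.26 under SNS-032 without passing, and PABPC1 and PABPC3 were below it, at -0.46 and -0.41 with 955. PAPOLG, a nuclear poly(A) polymerase, was at -0.84, -1.25 and -1.12 per the authors' deposited table.

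Among the export genes, the receptor subunits NXF1 and NXT1 both fell after 6 h of 955, and NXT1 also under SNS-032. NXT1, the small partner of NXF1, was at -0.87 after 1 h of 955 (FDR 0.156), -2.82 after 6 h (3.97e-06) and -4.43 under SNS-032 (6.41e-08) per the authors' deposited table, the lowest value of the 44 genes. NXF1, which contacts the nuclear pore, was at 0.03, -1.38 and -0.64 per the authors' deposited table, and its fall under SNS-032 (FDR 0.000334) was under the bound. THOC6, a THO subunit, was at 0.25, -0.99 and -1.06 per the authors' deposited table. Exons of other genes on the opposite strand overlap 23.2% of the THOC6 transcript, and the use of strand in counting is not given in the sources used here.

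The promoters of CSTF1, NXT1 and PABPC1L are shown because these genes were, in this order, the lowest after 6 h of 955 among those that fell at 1 h, the gene that differed most between the compounds, and the highest of all. Each stretch runs from 250 bases before to 50 bases after the RefSeq start (GRCh38.p14, plus strand, chr20:56392129-56392428, chr20:23350541-23350840 and chr20:44909810-44910109). Capitals mark any of 7 motifs, searched on both strands: the TATA box (TATAAA), the CCAAT box (CCAAT), the GC box (GGGCGG), the cyclic AMP response element (TGACGTCA), an ETS sequence (CCGGAAG), an AP-1 sequence (TGANTCA) and the palindrome of NRF1.
CSTF1: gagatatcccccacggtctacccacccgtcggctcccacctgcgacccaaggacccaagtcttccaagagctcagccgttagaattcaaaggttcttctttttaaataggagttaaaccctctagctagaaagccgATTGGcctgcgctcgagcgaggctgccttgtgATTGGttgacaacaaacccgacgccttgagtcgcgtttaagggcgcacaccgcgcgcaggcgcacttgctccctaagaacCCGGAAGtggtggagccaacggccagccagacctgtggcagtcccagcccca
NXT1: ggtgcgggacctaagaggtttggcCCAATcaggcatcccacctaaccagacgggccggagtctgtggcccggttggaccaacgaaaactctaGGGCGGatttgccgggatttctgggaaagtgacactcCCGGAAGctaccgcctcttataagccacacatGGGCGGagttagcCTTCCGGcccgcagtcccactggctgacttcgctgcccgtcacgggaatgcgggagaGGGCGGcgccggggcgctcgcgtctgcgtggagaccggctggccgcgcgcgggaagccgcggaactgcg
PABPC1L: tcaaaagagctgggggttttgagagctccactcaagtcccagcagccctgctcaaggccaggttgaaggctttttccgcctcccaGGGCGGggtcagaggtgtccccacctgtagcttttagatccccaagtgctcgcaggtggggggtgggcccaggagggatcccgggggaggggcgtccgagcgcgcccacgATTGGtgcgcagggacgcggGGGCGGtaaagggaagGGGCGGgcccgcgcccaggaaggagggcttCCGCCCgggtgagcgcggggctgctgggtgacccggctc
The CCAAT box was in all 3 promoters, and the GC box, a binding sequence of SP1-type factors, was in those of NXT1 and PABPC1L.

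Promoters were matched for 35 of the 44 genes. The CCAAT box was in 16 of 35 (45.7%, against 36.4% of 15843 coding promoters of the same length and 37.9% of 4326 promoters of listed coding genes). The GC box was in 22 (62.9%, against 58.5% of all and 69.0% of listed). The ETS sequence was in 7 (20%, against 14.2% of all and 20.9% of listed) and the TATA box in 3 (8.57%, against 9.63% of all and 6.31% of listed). The other motifs were each in 1 or 2 promoters: the cyclic AMP response element in 1 (2.59% of all and 3.40% of listed), the NRF1 palindrome in 2 (1.75% and 2.08%) and the AP-1 sequence in 2 (5.75% and 3.95%). These are descriptions of letters in a window, with no test.

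The 3 genes of the ZFP36 family, which bind AU-rich elements in mRNAs and bring CCR4-NOT to them, were below DMSO early. ZFP36L2 was at -1.21 after 1 h of 955 (FDR 0.00327), -1.59 after 6 h (2.85e-05) and -2.02 under SNS-032 (2.89e-06) per the authors' deposited table. ZFP36L1 was at -1.17 (FDR 0.0332), -0.75 (0.0777) and -1.69 (0.000317) per the authors' deposited table, so it had fallen at 1 h and under SNS-032 and did not pass after 6 h of 955. ZFP36 was at -1.41 (FDR 0.0874), -0.70 (0.267) and -1.48 (0.015) per the authors' deposited table, with an SE of 0.39 to 0.40 and 10.4 degrees of freedom. The change of the 3 genes from 1 h to 6 h of 955 was 0.71, 0.43 and -0.38 for ZFP36, ZFP36L1 and ZFP36L2, and none passed (adjusted p 0.112, 0.185 and 0.0971, approximate contrast over all listed genes).

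The 3' UTRs of these genes themselves hold AU-rich sites. The heptamer TATTTAT, a core of the element that ZFP36 proteins bind, occurs 3 times in the annotated 3' UTR of each of the 3 genes (GENCODE 29). Of 5383 coding genes with a 3' UTR of similar length (713 to 1917 bases), 2.58% hold 3 or more. The sites in the transcripts of ZFP36 (GRCh38, chr19:39406813-39409412, plus strand) and ZFP36L1 (chr14:68787662-68793240, minus strand) are shown, as the family's own binding sequence, with 10 bases on either side, the heptamer in capitals.
ZFP36 site 1: atgggcccttTATTTATgacgacttta
ZFP36 site 2: atgacgacttTATTTATtctaatatga
ZFP36 site 3: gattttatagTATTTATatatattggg
ZFP36L1 site 1: tatcaaaacgTATTTATtgccaaacta
ZFP36L1 site 2: attttgttcaTATTTATcgggatgaca
ZFP36L1 site 3: actgttggatTATTTATtttagaaatt
The first pair in ZFP36 lies close together, at bases 493 and 508 of the 3' UTR. EXOSC6, with 6 heptamers in a 3' UTR of 4304 bases, was the other gene of the 44 with 3 or more. It was at -0.46 after 1 h of 955 and -0.67 after 6 h per the authors' deposited table, and did not pass at either time, and it fell under SNS-032, at -1.04 (FDR 0.000699).

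**Figure D3:**
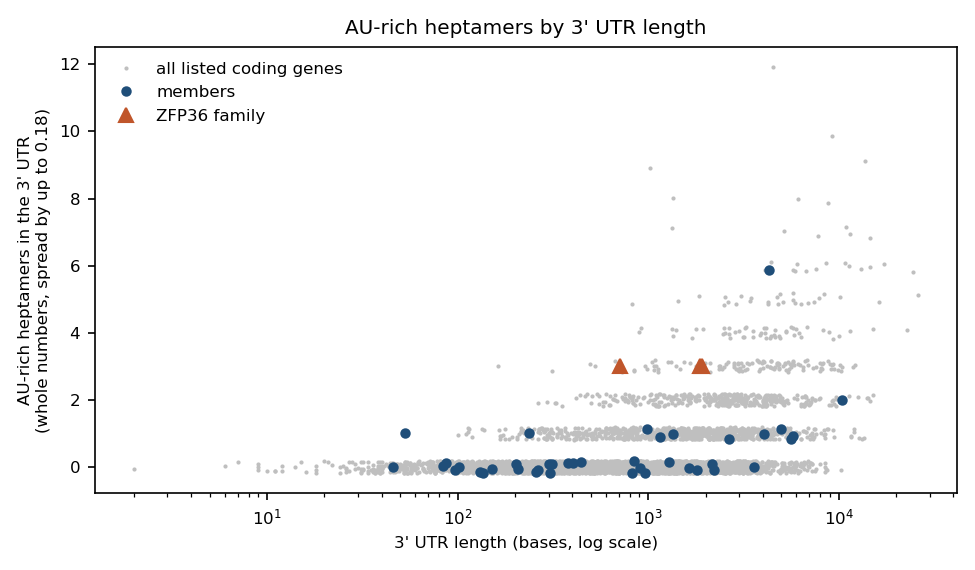
Number of AU-rich heptamers in the annotated 3' UTR (y axis, points spread by up to 0.18 to separate them) against 3' UTR length in bases (x axis, log scale) for the listed coding genes, with the 44 genes and the ZFP36 family marked; genes with no annotated 3' UTR, CNOT4 among them, are not drawn. The 3 ZFP36 family genes each have 3 heptamers in 713 to 1917 bases.

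The YTH genes encode readers of N6-methyladenosine, a mark on mRNA. YTHDF2, which leads marked mRNAs to decay, was at -1.20 after 1 h of 955 (FDR 7.66e-05), -2.91 after 6 h (6.49e-12) and -2.87 under SNS-032 (5.77e-12) per the authors' deposited table, with an SE of 0.17 to 0.18. YTHDF1 was at -0.60, -1.57 and -2.01 per the authors' deposited table. Both had fallen with each compound at 6 h.

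Of the CCR4-NOT genes, 4 of 5 fell with each compound at 6 h. CNOT7 and CNOT8, paralogous deadenylases, were at -0.04 and -0.02 after 1 h, -0.87 and -1.38 after 6 h of 955, and -1.10 and -1.39 under SNS-032 per the authors' deposited table. CNOT10 and CNOT11, which form a module at one end of the scaffold, were at -1.12 and -1.55 with 955 and -0.78 and -1.71 under SNS-032 at 6 h, and within 0.05 of DMSO at 1 h per the authors' deposited table. CNOT4, an associated ubiquitin ligase, differed in timing: it was at -1.27 after 1 h (FDR 0.000638), -1.08 after 6 h of 955 and -1.07 under SNS-032 per the authors' deposited table. Its change from 1 h to 6 h was 0.19 (SE 0.21, adjusted p 0.398, approximate contrast).

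Both decapping genes fell with each compound at 6 h. DCP1B, an activator of the decapping enzyme, was at -1.17 after 1 h (FDR 0.0023), -2.76 after 6 h of 955 and -2.78 under SNS-032 per the authors' deposited table. DCPS, which hydrolyses the cap left over from decay at the 3' end, was at -0.05, -2.29 and -2.20 per the authors' deposited table.

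Of the 8 exosome genes, 6 fell with 955 at 6 h and 6 under SNS-032, and they spread widely. EXOSC4, a subunit of the ring, was lowest, at -1.24 after 1 h (FDR 0.0732), -3.26 after 6 h of 955 (5.34e-06) and -3.71 under SNS-032 (1.54e-06) per the authors' deposited table. An annotated gene on the opposite strand overlaps 30.9% of the EXOSC4 transcript. EXOSC3, in the cap of the complex, was at -0.88, -3.21 and -3.04 per the authors' deposited table (SE 0.23, 0.25 and 0.25). The other cap subunit among them, EXOSC1, was at 0.18, -1.35 and -1.41. The ring subunits EXOSC5, EXOSC7, EXOSC8 and EXOSC9 were between -0.26 and 0.16 after 1 h, between -0.98 and -1.71 after 6 h of 955, and between -0.83 and -1.34 under SNS-032 per the authors' deposited table. EXOSC6 was the highest after 6 h of 955, at -0.67 (FDR 0.0237), and fell under SNS-032, at -1.04 (FDR 0.000699), per the authors' deposited table.

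SMG8 and SMG9 restrain SMG1, the kinase of nonsense-mediated decay, and both fell with each compound. SMG8 was at -1.84 after 1 h of 955 (FDR 0.000113), -2.41 after 6 h (1.39e-07) and -2.40 under SNS-032 (1.34e-07) per the authors' deposited table, with an SE of 0.25 to 0.26. SMG9 was at -0.40, -1.30 and -1.48 per the authors' deposited table.

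The 8 genes with ZC3H symbols are grouped here by symbol and do not share a single role. ZC3H10 was the lowest of the 44 at 1 h, at -2.01 (FDR 0.000224), and was at -2.48 after 6 h of 955 and -2.28 under SNS-032 per the authors' deposited table. ZC3H3, which links polyadenylation to export, was at -0.41, -2.12 and -1.77, and ZC3H4, which restrains noncoding transcription, at -1.12 (FDR 0.0628), -1.81 and -1.67 per the authors' deposited table. ZC3HC1, a protein of the nuclear basket, was at -0.78, -1.48 and -1.65 per the authors' deposited table. ZC3H13, of the complex that writes N6-methyladenosine, and ZC3H8 were at -0.97 and -0.75 after 6 h of 955 and at -1.08 and -1.03 under SNS-032 per the authors' deposited table. ZC3HAV1, an antiviral protein that binds CpG-rich RNA, and its paralog ZC3HAV1L were above DMSO. ZC3HAV1 was at 1.14 after 6 h of 955 and 1.30 under SNS-032, and ZC3HAV1L at 1.51 and 0.91, per the authors' deposited table, all 4 values turning negative under mitochondrial scaling. DCPH1, known earlier as ARMT1, is among the 44 by the letters of its symbol and is not known as a decapping gene. It was at 0.15, -1.40 and -1.08 per the authors' deposited table.

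The 8 genes that fell after 1 h of 955 were ZC3H10, SMG8, CSTF1, CNOT4, ZFP36L2, YTHDF2, ZFP36L1 and DCP1B, from 7 of the roles above. Of these, 7 had fallen after 6 h of 955 and 8 under SNS-032 per the authors' deposited table, beside 50.1% and 52.5% of all listed genes. The matching share among all listed genes that fell at 1 h is not given here. Of the 8, 6 were further below DMSO at 6 h of 955 than at 1 h. From 1 h to 6 h, CSTF1, YTHDF2 and DCP1B fell further past the threshold, by -1.52, -1.71 and -1.59 (SE 0.34, 0.17 and 0.23; adjusted p 0.00144, 6.55e-09 and 1.83e-06). Another 21 of the 44 genes were within 0.3 of DMSO at 1 h. Of them 13 had fallen after 6 h of 955 per the authors' deposited table, beside 50.1% of all listed genes, which were not limited to genes near DMSO at 1 h. A gene within 0.3 of DMSO at 1 h could be listed only by passing at 6 h. A later change in these genes thus follows from the listing and does not show their timing. Annotated transcripts of the 8 had 2 to 11 exons, with a median of 5, against 9.5 for the other 36 genes, 8 for all listed coding genes and 4 for the 437 listed coding genes that fell at 1 h. Their median transcript span was 11666 bases, against 19169 bases for the other 36, 21248 bases for all listed coding genes and 12411 bases for the 437. The heptamer above was in the 3' UTR of 5 of the 8 and of 10 of the other 36, beside 28.7% of all listed coding genes and 38.4% of those that fell at 1 h. The transcript of CNOT4 used here has no annotated 3' UTR, and such transcripts were counted as 0 bases in the medians that follow. The median 3' UTR was 1347 bases in the 8, 579 bases in the 36, 926 bases in all listed coding genes and 1325 bases in the 437. In exon number and span the medians of the 8 were thus near those of all listed coding genes that fell at 1 h. For 3' UTR length this held with CNOT4 counted as 0 bases, and the 8 ranged from 0 to 5647 bases.

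**Figure D4:**
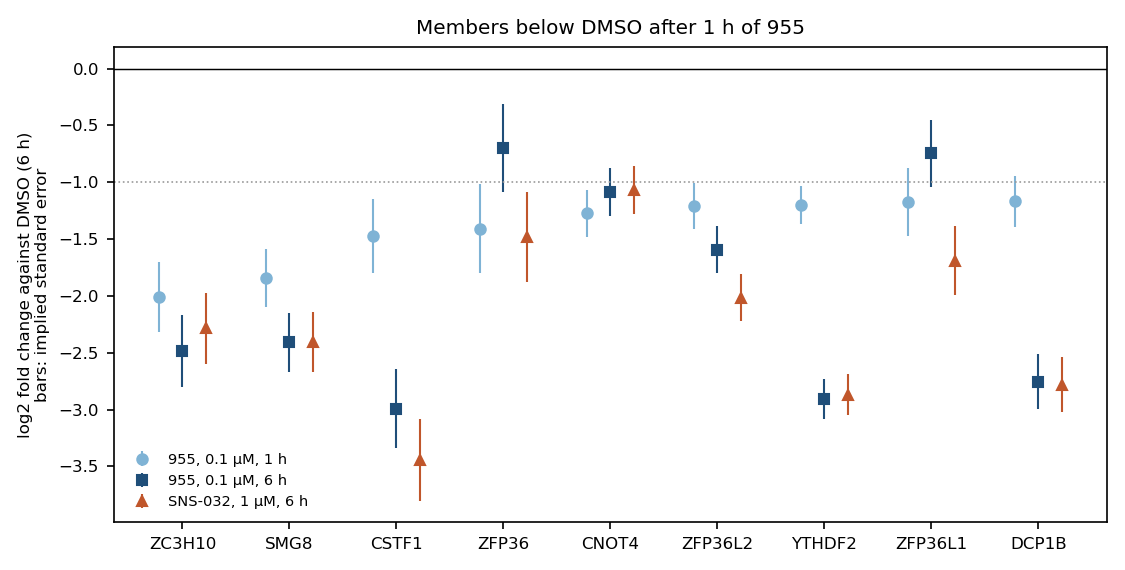
Log2 fold change against DMSO (y axis, bars are implied standard errors) of the 8 genes that fell after 1 h of 955 and of ZFP36, after 955 (1 h and 6 h) or SNS-032 (6 h). CSTF1, YTHDF2 and DCP1B are far lower at 6 h than at 1 h, CNOT4 is about level, and ZFP36 and ZFP36L1 are nearer to DMSO after 6 h of 955 than at 1 h.

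The contrast of 6 h with 1 h of 955 was approximated from the 2 effects against DMSO, and 21 of the 44 genes were lower and 4 higher at 6 h past the threshold. Over all listed genes 62.7% passed (35.6% lower and 27% higher). The 21 included 7 of 8 exosome genes, both decapping genes, 3 of 3 genes of the THO and export group and 3 of 5 CCR4-NOT genes. The largest drop was that of EXOSC3, at -2.33 (SE 0.24, adjusted p 1.1e-08), followed by CPSF2 at -2.24 (0.26, 3.72e-06) and DCPS at -2.23 (0.30, 8.62e-06). The 4 higher genes were PABPC1L at 1.64, PABPC3 at 1.49, ZC3HAV1L at 1.39 and PABPC1 at 1.26. Under mitochondrial scaling none of the 44 was higher and 36 were lower, beside 58.1% of all listed genes lower. None of the ZFP36 family passed in this contrast by adjusted p or at an unadjusted p under 0.05.

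The compounds at 6 h were compared at 0.1 µM for 955 and 1 µM for SNS-032. In the approximate contrast 1 of the 44 genes passed, against 1.11% of all listed genes (0.851% higher and 0.26% lower with 955). This was NXT1, whose difference (955 minus SNS-032) was 1.61 (95% interval 0.88 to 2.34, adjusted p 0.0207), a smaller fall with 955. When its standard error was computed as if the controls were not shared, its adjusted p was 0.416, and it was 0.00304 to 0.416 over the alternatives. NXF1 differed the other way, by -0.75 (-1.02 to -0.48, adjusted p 0.00268), a larger fall with 955 that was under the bound of 1. EXOSC9 was at -0.76 (-1.14 to -0.39, adjusted p 0.0223) and ZC3HAV1L at 0.61 (0.27 to 0.95, adjusted p 0.0452). Computed in that way, the adjusted p was 0.178 for NXF1, 0.448 for EXOSC9 and 0.586 for ZC3HAV1L. Exons of CCNA2 on the opposite strand overlap 9.59% of the EXOSC9 transcript.

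For the other genes no difference passed, which does not show that the compounds act alike. The difference was under 0.5 in 37 of the 44 genes, and the 95% interval lay within 1 of 0 in 36. Wider intervals were those of ZFP36 (0.78, from -0.09 to 1.66), ZFP36L1 (0.94, from 0.31 to 1.58, adjusted p 0.128), EXOSC4 (0.46, from -0.41 to 1.32), CSTF1 (0.45, from -0.33 to 1.23) and EXOSC7 (-0.62, from -1.17 to -0.08, adjusted p 0.26). Mitochondrial scaling, which raises each difference by the same amount, put ZFP36L1 at 1.22 with an adjusted p of 0.0171, past the threshold.

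**Figure D5:**
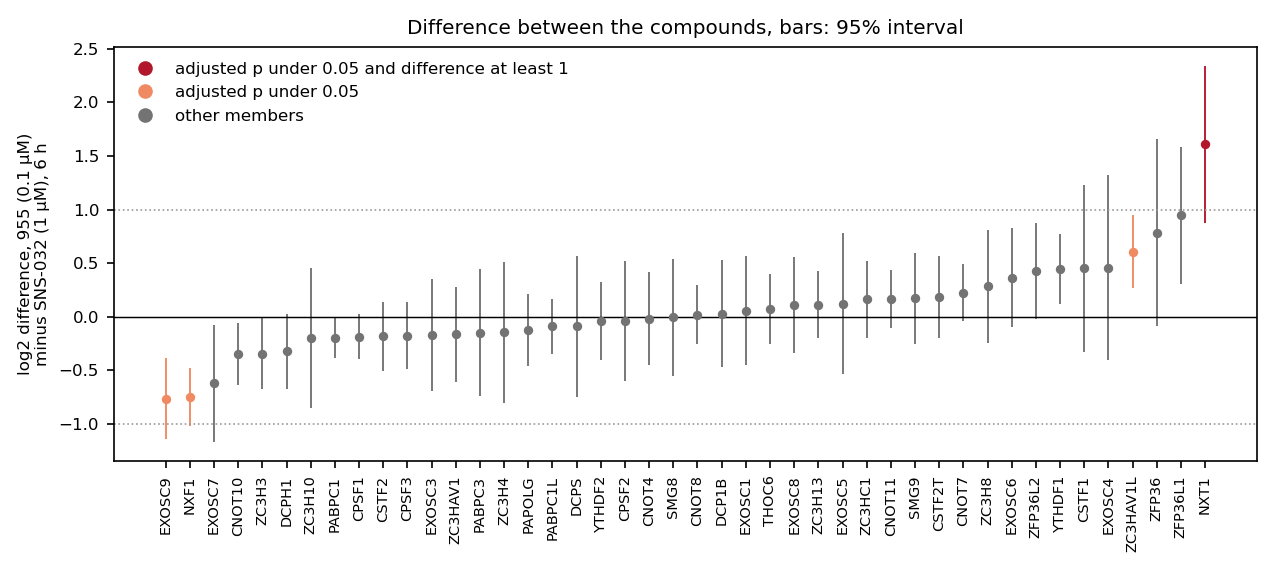
Log2 difference between 955 at 0.1 µM and SNS-032 at 1 µM after 6 h (y axis) for each of the 44 genes (x axis, in order of the difference); bars are 95% intervals and dotted lines mark -1 and 1. NXT1, at 1.61, is the one gene with an adjusted p under 0.05 beyond 1, and EXOSC9 and NXF1 are lowest.

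Other genes of the same pathways, 112 in 8 lists, gave 50 listed genes. After 6 h of 955, 39 of the 50 fell and 5 rose, under SNS-032 37 fell and 7 rose, and after 1 h of 955 4 fell and none rose per the authors' deposited table. The fallen shares were 78%, 74% and 8%, beside 50.1%, 52.5% and 7.71% of all listed genes and 53.0%, 54.7% and 8.27% of listed coding genes. Among other 3' processing factors, 6 of 9 fell and 1 rose with 955 at 6 h, from WDR82 at -3.48 to SYMPK, the scaffold symplekin, at 1.03 per the authors' deposited table. The termination factor PCF11 and the histone mRNA factor LSM11 were among those that fell at 1 h, at -1.19 and -1.05, and LSM11 was at 0.04 after 6 h of 955 per the authors' deposited table. Of other export factors 6 of 6 fell with 955 at 6 h, from RAE1 at -2.19 to NCBP1, the cap-binding subunit, at -1.06 per the authors' deposited table. Of other deadenylation factors 4 of 6 fell and 1 rose, from TOB1 at -1.83 to the deadenylase subunit PAN2 at 1.32 per the authors' deposited table. Of other decapping factors 4 of 5 fell, from LSM1 at -1.32 to LSM4 at 0.89 per the authors' deposited table. Of other exosome cofactors 6 of 7 fell, from RBM7 at -2.31 to C1D at -0.30 per the authors' deposited table. Of other nonsense-mediated decay factors 7 of 7 fell, from EIF4A3, a core of the exon junction complex, at -2.90 to DHX34 at -1.05 per the authors' deposited table. Of other N6-methyladenosine factors 4 of 6 fell and 2 rose, from RBM15B at -2.43 to IGF2BP2 at 2.26 per the authors' deposited table. Of other AU-rich element and stem-loop binding factors 2 of 4 fell and 1 rose, from PUM2 at -1.53 to RC3H1, the stem-loop binding protein roquin, at 1.20 per the authors' deposited table. Under mitochondrial scaling SYMPK, PAN2, LSM4 and RC3H1 were below DMSO at 6 h of 955, at -1.05, -0.75, -1.18 and -0.87, and IGF2BP2 was at 0.19.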

How the data were processed

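RNA of 12 MOLT4 samples in 4 groups of 3 was sequenced from mRNA libraries, per the labels' protocols. The table deposited by the authors holds log2 fold changes, average log2 CPM, an F statistic (a score), p-values and FDR for 3 comparisons with DMSO, per the file headers, and no values per sample. The submitters' processing notes name hg38 and DESeq2 with no role, although an F statistic was deposited. The aligner, counter, strand and annotation are not given in the sources used here. The log base was read as 2, and the folds given above rest on this reading. Every gene had a value above 1 in size in some comparison, which shows a bound of 1 and does not settle the base. Depth is unknown.

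Python 3.11.15, pandas 2.3.3 and scipy 1.17.1 were used. Gene IDs were matched to RefSeq GRCh38.p14 (5727 of 5759). Implied standard errors and denominator degrees of freedom were solved from F and p. Contrasts of 2 treated groups used the difference of log2 fold changes, the root mean square of both standard errors, a t distribution and Benjamini-Hochberg adjustment over 5759 genes. They were tried on simulated normal values with 1 spread per gene in all groups. That setting does not cover genes whose spread differs between groups. For mitochondrial scaling, p-values were adjusted over 28395 tests, the number for which p over FDR gave whole ranks (within 0.01) in 81.1% of 3083 values. Transcript features came from GENCODE 29 (GRCh38), 1 transcript a gene.

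Members, lists and tests were chosen with earlier results of these data known. All members were named. Values were given for the lowest and highest of each role at 6 h of 955, those past the threshold at 1 h or between compounds, and, added afterwards, the remaining members. Alternatives were other thresholds, mitochondrial scaling and other standard errors. The result of another marker list is not reported here.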

Additional observations from a re-analysis of the deposited data

Results flagged for a closer look

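Differences between times or compounds that passed the approximate contrast (t distribution, Benjamini-Hochberg adjusted over all listed genes) are listed by role, on the log2 scale. The vehicle of both times was the one collected at 6 h.

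From 1 h to 6 h of 955, the exosome genes EXOSC3, EXOSC4, EXOSC7, EXOSC1, EXOSC9, EXOSC5 and EXOSC8 were lower at 6 h by -2.33, -2.02, -1.62, -1.53, -1.45, -1.37 and -1.04. The cleavage genes CPSF2, CSTF1 and CPSF3 were lower by -2.24, -1.52 and -1.42, and the decapping genes DCPS and DCP1B by -2.23 and -1.59. The export genes NXT1, NXF1 and THOC6 were lower by -1.95, -1.41 and -1.24. The CCR4-NOT genes CNOT11, CNOT8 and CNOT10 were lower by -1.50, -1.36 and -1.08. ZC3H3, YTHDF2 and DCPH1 were lower by -1.71, -1.71 and -1.55.

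The genes higher at 6 h than at 1 h were PABPC1L, PABPC3, ZC3HAV1L and PABPC1, at 1.64, 1.49, 1.39 and 1.26. Under mitochondrial scaling none of these 4 passed, at 0.24, 0.09, -0.0047 and -0.14. Between the compounds at 6 h, NXT1 was higher with 955 by 1.61, and it did not pass (adjusted p 0.416) when the standard error was computed as if the controls were not shared.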

How the results depend on the processing

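No paired analysis was possible because the table holds comparisons and no values per sample; leaving out each replicate was not run for the same reason. At 1 h, the 8 genes past the threshold became 16 with no fold-change bound, 1 with a bound of 2 on the log2 scale and 20 under mitochondrial scaling. Of all 5759 listed genes, 958 had an FDR under 0.05 at 1 h, and 27.7% fell at 1 h under mitochondrial scaling. At 6 h the bound of 2 left 12 of 35 genes with 955 and 13 of 38 under SNS-032. The shares of all listed genes past a bound of 2 are not given here. Between the compounds the count of 1 became 0 when the standard error was computed as if the controls were not shared (5 genes had an unadjusted p under 0.05) and 2 under mitochondrial scaling. Over all listed genes, 6 were higher and 2 lower with 955 in the former setting, and 170 and 11 in the latter. In alternatives chosen after seeing the data, dropping the bound took the count of 1 between the compounds to 4. It took the count of 25 from 1 h to 6 h of 955 to 38. A bound of 2 took these counts to 0 and 4. With the bound dropped, 157 of the 5759 listed genes passed between the compounds and 4876 from 1 h to 6 h of 955. The other settings run for each comparison kept its count within 1.5 times, but mitochondrial scaling turned the split from 1 h to 6 h of 955 from 4 higher and 21 lower to 0 and 36. Under mitochondrial scaling 5 genes changed sign at 6 h of 955 and under SNS-032: CPSF1 (-1.11 and -1.20), PABPC1 (-0.46 and -0.54), PABPC3 (-0.41 and -0.54), ZC3HAV1 (-0.93 and -1.04) and ZC3HAV1L (-0.56 and -1.44). From 1 h to 6 h of 955, PABPC1 went to -0.14 and ZC3HAV1L to -0.0047. At 1 h 13 genes that passed under neither scaling changed sign. The cause of these changes was not tested beyond the shift itself. Depth is unknown, and 9 of the 44 genes had under 15 degrees of freedom.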

Other observations

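The table also lists 5 genes with these prefixes that are not protein-coding. SMG1P1, SMG1P3, SMG1P5 and SMG1P7 are transcribed pseudogenes of SMG1, the kinase restrained by SMG8 and SMG9, and SMG1 itself is not analysed here. They were above DMSO in each comparison. In the authors' deposited table they were at 0.86, 1.22, 1.25 and 1.16 after 1 h of 955 (FDR 0.0419, 0.000364, 0.0111 and 0.0873), at 2.42, 3.03, 3.28 and 1.95 after 6 h of 955, and at 2.72, 2.93, 2.64 and 2.12 with SNS-032. Their implied standard errors at 6 h of 955 were 0.25, 0.20, 0.30 and 0.38. Under mitochondrial scaling they were at 0.35, 0.96, 1.20 and -0.12 after 6 h of 955. These copies are near-identical to SMG1 and to each other, so the authors' counting could have split their reads. Of all listed genes, 0.729% rose after 1 h of 955, 35.2% after 6 h and 37.8% under SNS-032. Of listed coding genes alone, 0.342%, 32.5% and 35.6% rose, so rising was more common among the listed genes that are not protein-coding. The lncRNA CSTF3-DT was at 0.93, 2.01 and 1.47 per the authors' deposited table, and its value was -0.06 after 6 h of 955 under mitochondrial scaling.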
